A study of Mus musculus with 8 samples.

Results

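The Notch pathway genes described here are 10 genes of mouse bone marrow mesenchymal stem cells (MSCs), taken by name from the 47643 named genes of the deposited expression table: the receptors Notch1, Notch2 and Notch3, the ligands Jag1, Jag2 and Dll1, and the effectors Hes1, Hey1, Hey2 and Heyl. For the same genes, the 10160 deposited peaks of N6-methyladenosine (m6A), a methyl mark on adenosines of mRNA, were placed by their summits, and 11 peaks fell on members.

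Notch signalling passes between touching cells. A Jagged or Delta ligand on one cell binds a Notch receptor on its neighbour, proteases of the ADAM family and the γ-secretase complex then cut the receptor, and the freed intracellular domain enters the nucleus, where it joins the DNA-binding protein Rbpj and a Mastermind coactivator. The complex switches on the Hes and Hey genes, which encode transcriptional repressors, and in the bone marrow the pathway is known for holding mesenchymal progenitors back from osteoblast differentiation.

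The study asked what the loss of Mettl3, the catalytic subunit of the m6A methyltransferase, does to MSCs. RNA-seq compared 2 libraries labelled cKO, from Prx1-Cre;Mettl3fl/fl mice, with 2 labelled WT, from control littermates, which the study elsewhere gives as Mettl3fl/fl, so that both genotypes carry the floxed allele. The labels give the strain as C57BL/6 and the study's methods name C57BL6/J. Prx1-Cre is active in limb bud mesenchyme and its descendants, so marrow cells of blood origin that stay in such a culture keep Mettl3. MeRIP-Seq, in which an antibody recovers methylated RNA fragments, used 2 immunoprecipitates and 2 inputs of wild-type MSCs. All 8 samples had spent 2 days in osteogenic medium, which contained 100 nM dexamethasone, 5 mM β-glycerophosphate and ascorbic acid at 50 µg/ml, and the age and sex of the mice are not given in the sources used here.

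The RNA-seq libraries held between 23978099 and 34106693 counts. Mettl3 itself stood at 17.6 and 16.9 CPM (counts scaled to a library of 1000000) in the libraries labelled WT and at 17.5 and 16.3 in those labelled cKO (log2 fold change −0.03, SE 0.0929, edgeR adjusted p = 0.824). These gene totals include exons outside the deleted exons 2 and 3, and Tox4 overlaps the gene, so they do not check the labels, and every direction below is given by the labels. The libraries labelled WT differed from each other far more (biological coefficient of variation 12.3%) than those labelled cKO (1.90%), whose counts lay close to sampling noise (chi-square 1.82 times its expectation, against 32.6 for the WT pair). No source used here says whether replicates were separate mice or cultures, so that p-values measure only the spread between these libraries, which may be technical. Mesenchymal markers were present, such as Prrx1 (146 and 134 CPM in the WT libraries, 288 and 289 in the cKO libraries) and Pdgfra, while Lepr did not exceed 1.24 CPM in any library. Macrophage markers summed to between 14918 and 20069 CPM in every library, with Lyz2 and Csf1r far above the mesenchymal markers.

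In the wild-type cells, m6A peaks lay on all 3 receptors and on both Jagged ligands, whereas Dll1 and the 4 effectors had none. Notch2 carried 5 peaks, Notch1 carried 3, and Notch3, Jag1 and Jag2 carried a single peak each. All 11 summits lay in the last exon of the gene, the stretch that holds the end of the coding sequence (CDS) and the 3′UTR, compared with 61.6% of the 8060 summits on spliced coding transcripts overall. By annotation, 7 were in CDS and 4 in 3′UTR, a split of 63.6% and 36.4% beside 61.0% and 25.7% for all peaks within genes.

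The core of the m6A consensus, GGAC, was searched on the transcript strand only, in a window of 201 bases around each summit. It occurred in 8 of the 11 member windows (72.7%), compared with 80.1% of the windows of all 9397 peaks within genes. To show where the mark may sit on each modified member, the GGAC nearest to the summit of its most enriched peak is given with 13 bases on either side, from the mm9 genome, 5′ to 3′ on the transcript strand. Capitals mark GGAC, whose adenosine is the candidate m6A position; the peak list does not resolve single bases.
Notch1, 3′UTR, chr2:26314227-26314256, minus strand: gaaaacactgcctGGACtgttctgtgcatc
Notch2, 3′UTR, chr3:97953376-97953405, plus strand: gggtctggtcactGGACctaccccagacac
Notch3, CDS, chr17:32259527-32259556, minus strand: gcggtgcagtctgGGACcaagaagagcagg
Jag1, CDS, chr2:136908952-136908981, minus strand: atgtcaaaaatcaGGACacacaactcggaa
Jag2, CDS, chr12:114147366-114147395, minus strand: ctgggggccacaaGGACatactctaccagt
In these 5 windows the adenosine lay between 12 bases (Jag2) and 45 bases (Notch3) from the summit.

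The peak on the Notch1 3′UTR was the most enriched of the 11. Its summit lay 832 nt past the stop codon in exon 34 of 34, with a pileup of 91 fragments, a fold enrichment of 6.47 over the local background and a −log10 q of 39.8, which ranked 387 among all peaks. The other Notch1 peaks were in CDS, 367 and 1108 nt before the stop codon, with fold enrichments of 2.42 and 4.39. Jag1 had the peak with the highest −log10 q of the members, 45.4 (rank 177), at a fold enrichment of 5.95 and with its summit 186 nt before the stop codon in exon 26 of 26. The Notch3 summit lay 731 nt before the stop codon in exon 33 of 33 (fold enrichment 5.41, −log10 q 26.1).

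On Notch2 the peaks ran along the last exon, with summits 1023 and 566 nt before the stop codon and 314, 1127 and 2001 nt after it. Fold enrichment was 2.40, 2.90, 2.87, 4.49 and 4.92 in that order, so that the peaks of the distal 3′UTR were the more enriched, and the windows of both CDS peaks held no GGAC. Only 0.919% of the 12511 genes with a mean WT level of at least 1 TPM (a length-scaled level that sums to 1000000 over a library) had 5 or more peaks. The Jag2 peak was the weakest by pileup (24 fragments, fold enrichment 4.20, −log10 q 6.84), beside medians of 60 fragments, 4.03 and 14.2 for all peaks. A further peak (chr12:114146437-114146694, fold enrichment 5.32, −log10 q 4.56) had its summit 210 bases past the annotated 3′ end of Jag2 and was not counted. With a −log10 q of at least 10, 9 peaks on 4 members remained, and Jag2 had none.

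**Figure D1:**
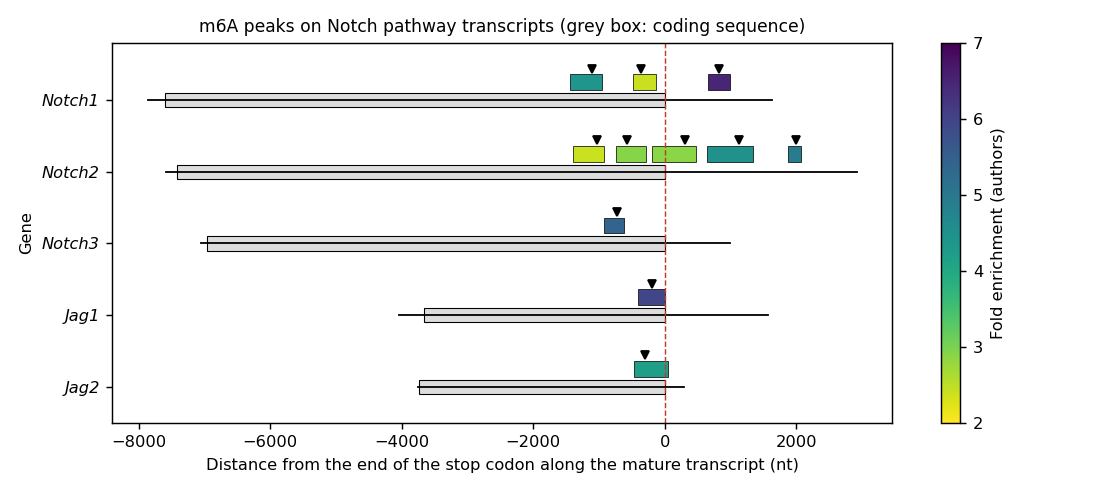
m6A peaks on the mature transcripts of the 5 members that carry any, as distance in nt from the end of the stop codon (dashed line). Grey boxes are coding sequence, thin lines untranslated regions, coloured bars the peaks shaded by fold enrichment and triangles their summits; all 11 summits lie in the last exon, and the Notch1 3′UTR peak has the highest fold enrichment, 6.47.

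The share of genes with a called peak was larger where the RNA-seq counts were higher. Of genes with a mean of 900 to 1400 counts in the WT libraries, the range of Notch1, Notch3 and Jag1, 49.1% of 1599 had a peak, and of genes with 4000 to 5500, the range of Notch2, 54.5% of 552. Hes1 (228 and 247 counts) and Hey1 (290 and 293) fell between 200 and 300, where 36.5% of 797 genes had a peak, and Jag2 (65 and 78) between 50 and 100, where 22.6% of 881 had. These ranges were set after the counts of the members had been seen. The transcripts of members without a peak ran from 1468 nt for Hes1 to 4537 nt for Heyl, and those of members with a peak from 4054 nt for Jag2 to 10506 nt for Notch2. A peak missing from the list does not show that a transcript was unmethylated.

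The RNA-seq libraries labelled cKO held more Notch2, Notch3 and Jag1 RNA and less Hes1 and Hey1 RNA than those labelled WT. Of the 10 members, 9 passed the filter on low counts, and 5 of them changed at an adjusted p under 0.05 (quasi-likelihood test of edgeR, Benjamini-Hochberg adjusted over 15327 genes), with a background of 30.5% of all genes tested. Notch2, Notch3 and Jag1 rose, beside 13.7% of all genes that rose, and Hes1 and Hey1 fell, beside 16.8% that fell. The groups did not overlap in CPM for any of the 9, but this held for 68.9% of all genes tested as well. Their median log2 fold change was 0.68, compared with −0.0038 for all genes tested. These are bulk libraries, in which fewer cells of a type and less RNA per cell cannot be told apart.

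**Figure D2:**
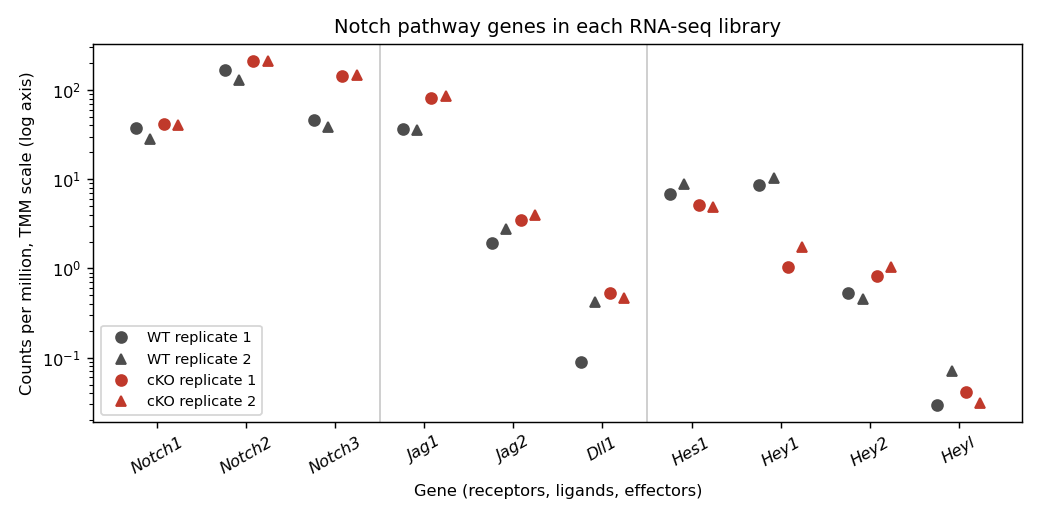
CPM (TMM scale, logarithmic axis) of the 10 Notch pathway genes in every RNA-seq library, ordered as receptors, ligands and effectors; grey points are libraries labelled WT and red points those labelled cKO, with circles for replicate 1 and triangles for replicate 2. Both red points stand above both grey points for Notch3 (144 and 146 against 45.6 and 38.0) and Jag1, and below them for Hes1 and Hey1 (1.03 and 1.76 against 8.58 and 10.4).

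Notch3, the receptor best known from vascular smooth muscle and pericytes, rose most among the receptors. It was at 45.6 and 38.0 CPM in the WT libraries and at 144 and 146 CPM in the cKO libraries, with a wide gap between the groups. This was a 3.46-fold increase (95% interval 2.96 to 4.05; log2 fold change 1.79, SE 0.0942, edgeR adjusted p = 7.04e-05). The gene lies at chr17:32120820-32166880 on the minus strand of GRCm38, and the only gene overlapping it, Gm17276, had a mean of 11 counts. Of the 3 receptors Notch3 carried the fewest m6A peaks.

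Notch2, the most abundant member in all 4 libraries, rose less. The WT libraries held 165 and 129 CPM and the cKO libraries 210 and 210, so that the WT libraries differed from each other by nearly as much as the higher of them did from the cKO libraries. The increase was 1.43-fold (interval 1.18 to 1.73; log2 fold change 0.52, SE 0.115, edgeR adjusted p = 0.0186; chr3:98013527-98150361, plus strand, GRCm38). The call was lost without cKO replicate 1 (adjusted p = 0.0681) or cKO replicate 2 (0.0668) and with the cKO libraries summed to 1 sample (0.0595), at a log2 fold change of 0.52 each time; without WT replicate 2 the log2 fold change was 0.34 and without WT replicate 1 it was 0.71.

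Notch1, the receptor with the most enriched peak, did not pass the test. It was at 37.4 and 27.9 CPM in the WT libraries and at 41.1 and 40.4 in the cKO libraries, with the first WT library close to the cKO libraries. The log2 fold change was 0.32 (interval −0.01 to 0.64, edgeR adjusted p = 0.129). Notch1 was called without the filter on low counts, at the same log2 fold change of 0.32 (adjusted p = 0.0061). Without WT replicate 1 it became 0.55 and was called (8.12e-14), without WT replicate 2 it was 0.12 (0.0929), and on the deposited TPM with a pseudocount of 0.1 it was 0.74 (limma adjusted p = 0.11).

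Jag1, a ligand of Notch receptors, more than doubled. Its 36.1 and 35.2 CPM in the WT libraries were nearly equal, as were its 82.0 and 84.7 CPM in the cKO libraries. The increase was 2.34-fold (interval 2.10 to 2.60; log2 fold change 1.23, SE 0.0634, edgeR adjusted p = 6.66e-05; chr2:137081456-137116644, minus strand, GRCm38), and leaving out any library kept the log2 fold change between 1.21 and 1.25. Jag1 thus moved with Notch3, with a smaller fold and the smallest standard error of the members.

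The other ligands were scarce and were not called. Jag2, which is related to Jag1 but encoded by its own gene, was at 1.92 and 2.76 CPM in the WT libraries and at 3.51 and 3.92 in the cKO libraries (log2 fold change 0.68, interval 0.10 to 1.25, edgeR adjusted p = 0.0774). It was called without WT replicate 2 (0.95, adjusted p = 0.000203) and without the filter on low counts (0.68, adjusted p = 0.0136). Dll1, a Delta ligand, had 3 and 12 counts in the WT libraries and 13 and 15 in the cKO libraries, so that WT replicate 1 stood alone below the others. Its log2 fold change of 1.01 (interval −0.64 to 2.66, edgeR adjusted p = 0.31) became 0.24 without WT replicate 1 and 2.44 without WT replicate 2 (adjusted p = 0.026), and was 0.20 on TPM with a pseudocount of 0.1.

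Hey1, an effector repressor of the Hey family, fell most of all members. The WT libraries held 8.58 and 10.4 CPM (290 and 293 counts) and the cKO libraries 1.03 and 1.76 CPM (25 and 56 counts), with a wide gap between the groups. Its level was 6.62-fold lower (log2 fold change −2.73, SE 0.252, interval −3.33 to −2.12, edgeR adjusted p = 0.000671; chr3:8663359-8667256, minus strand, GRCm38). The log2 fold change was −2.42 to −3.19 with any library left out. On TPM with a pseudocount of 1 it was −1.79, since that pseudocount is as large as the cKO level.

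Hes1, the effector with the highest length-scaled level among the members, fell by less. It was at 6.74 and 8.74 CPM in the WT libraries and at 5.12 and 4.90 in the cKO libraries, with the first WT library nearer to the cKO libraries than to the second. The level was 1.54-fold lower (log2 fold change −0.63, SE 0.171, edgeR adjusted p = 0.0359; chr16:30064384-30067796, plus strand, GRCm38). The call did not hold in DESeq2 (adjusted p = 0.0554), without cKO replicate 1 (0.153), without cKO replicate 2 (0.197) or with the cKO libraries summed (0.155).

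Hey2 and Heyl were barely present. Hey2, known for its role in heart and vessel development, had 18 and 13 counts in the WT libraries and 20 and 33 in the cKO libraries. At this depth its log2 fold change of 0.91 was not called (interval 0.03 to 1.78, edgeR adjusted p = 0.11). Heyl had 1 and 2 counts in the WT libraries and 1 and 1 in the cKO libraries, was not tested, and at or under a floor of 3 counts per library gives no fold.

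**Figure D3:**
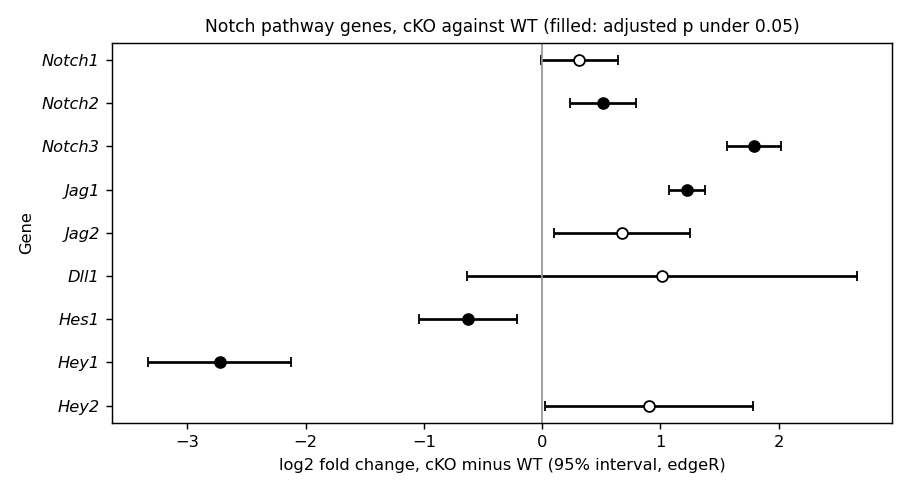
Log2 fold change, cKO minus WT, of the 9 members tested, with 95% intervals from the edgeR fit; filled circles passed an adjusted p of 0.05. Notch3 (1.79), Jag1 (1.23) and Notch2 (0.52) lie to the right of 0, Hes1 (−0.63) and Hey1 (−2.73) to the left, and the interval of Dll1 is the widest.

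Levels of different genes were set side by side on the deposited length-scaled TPM, where a value is a level and not a difference. In the WT libraries the order of the means was Notch2 (18.7 TPM), Hes1 (10.9), Jag1 (9.37), Notch1 (8.28), Notch3 (6.91), Hey1 (5.72) and, all below 1 TPM, Jag2, Hey2, Dll1 and Heyl. The ranges of Jag1 and Notch1, of Notch1 and Notch3, and of Notch3 and Hey1 overlapped, so that these neighbours did not differ beyond their spread. In the cKO libraries the order was Notch2 (29.2 TPM), Notch3 (25.6), Jag1 (23.4), Notch1 (13.6), Hes1 (6.75), Jag2 (1.35), Hey1 (0.96), Hey2, Dll1 and Heyl, and the ranges of no neighbours overlapped. Notch3 thus stood above Hes1 in the cKO libraries and below it in the WT libraries. Jag1 also stood above Hes1 in the cKO libraries, but in WT replicate 1 these genes were nearly level (9.97 and 9.99 TPM). Notch1 stood above Hes1 in that library (10.3 TPM), so Hes1 was not clearly apart from either gene in the WT libraries.

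Receptor make-up was described with Notch4 included. The summed receptor level was 42.2 and 32.5 TPM in the WT libraries and 72.1 and 76.3 TPM in the cKO libraries. TPM was not rescaled between libraries as the counts were. The median log2 fold change of all genes tested was 0.097 on log2(TPM + 0.1), beside −0.0038 on counts. That of Notch1 was 0.74 on log2(TPM + 0.1), beside 0.32 on counts. The sum thus describes levels and gives no fold. Notch3 made up 18.0% and 19.2% of it in the WT libraries and 35.3% and 33.8% in the cKO libraries, whereas Notch2 made up 50.5% and 49.6% and then 40.4% and 38.3%. The share of Notch1 was 24.4% and 19.2% in the WT libraries and 16.7% and 19.9% in the cKO libraries, and these ranges overlap. With 2 libraries a group the smallest exact permutation p for such a share is 0.333, so no test was made.

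**Figure D4:**
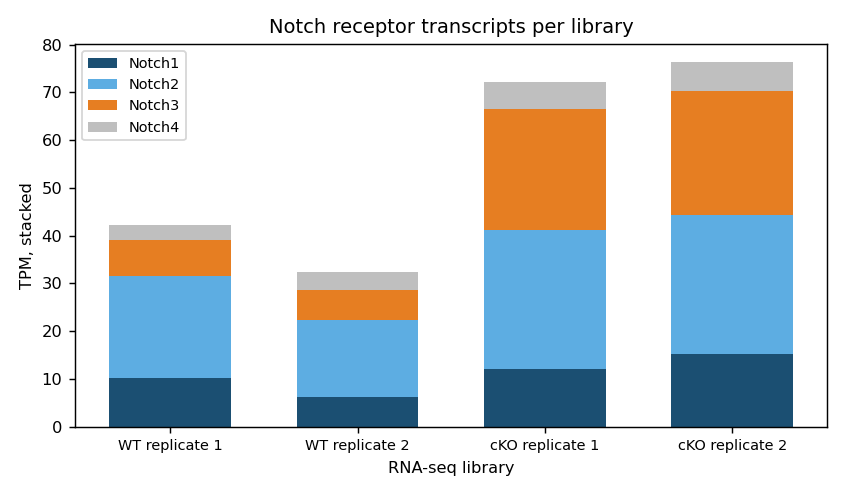
Stacked TPM of Notch1, Notch2, Notch3 and Notch4 in each RNA-seq library; bar height is the summed receptor level. The bars of the cKO libraries reach 72.1 and 76.3 TPM, above the 42.2 and 32.5 TPM of the WT libraries, and their Notch3 segment is 35.3% and 33.8% of the bar.

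Of 58 other Notch pathway genes, 50 were tested, and 19 of them (38.0%) rose while 3 (6.00%) fell, beside 13.7% and 16.8% of all genes tested. Their median log2 fold change was 0.15. Of the 22 calls in either direction, fewer were made without cKO replicate 1 (8), without cKO replicate 2 (5) and with the cKO libraries summed (8), and more without WT replicate 1 (36). The nuclear complex moved most often: 7 of 9 genes rose and none fell in the edgeR fit, among them Rbpj, the DNA-binding partner of the cleaved receptor, and the Mastermind coactivators. Rbpj stood at 101 and 112 CPM in the WT libraries and at 146 and 150 in the cKO libraries (log2 fold change 0.47, SE 0.0701, edgeR adjusted p = 0.00436). Maml2 (29.1 and 31.4 CPM in the WT libraries, 45.4 and 44.4 in the cKO libraries) had a log2 fold change of 0.57 (adjusted p = 0.0028) and Maml3 one of 0.52 (adjusted p = 0.0336). The Rbpj call was lost without cKO replicate 2 (adjusted p = 0.0542), and Maml3 was not called in 6 of 11 alternatives.

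Of the 10 proteases and protease subunits that cut the receptor, 1 (10.0%) rose, near the 13.7% of all genes tested that rose. It was Aph1c, a γ-secretase subunit with a near-identical copy, Aph1b, with which it may share reads. Of the 5 glycosylation genes, which tune the response of receptors to ligands, 2 rose (40.0%), Lfng and Mfng. Among the corepressors, Ncor1 and Spen rose and Hdac1 fell. Of 12 genes of endocytosis, ubiquitination and inhibition tested, 4 rose (33.3%), led by Dtx4, a ubiquitin ligase of the Deltex family, with 44.2 and 35.4 CPM in the WT libraries and 81.9 and 82.6 in the cKO libraries (log2 fold change 1.04, edgeR adjusted p = 0.00103). Neurl1a, a ubiquitin ligase of ligands, had a log2 fold change of 0.66 (adjusted p = 0.0336) and was not called in 6 of 11 alternatives.

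Among the remaining receptors, ligands and effectors the calls went both ways. Notch4, the receptor known from endothelium, rose from 6.98 and 8.60 CPM in the WT libraries to 13.5 and 14.5 in the cKO libraries (log2 fold change 0.85, SE 0.135, edgeR adjusted p = 0.00547). Dlk2, a noncanonical ligand-like protein, fell from 6.24 and 6.93 CPM to 2.35 and 3.07 (log2 fold change −1.27, SE 0.191, adjusted p = 0.00449), but overlaps Abcc10 on the opposite strand, and the use of strand in counting is not stated. Myc fell (log2 fold change −0.56, edgeR adjusted p = 0.00714), a call lost without either cKO replicate and with the cKO libraries summed. Hes6 rose by little (log2 fold change 0.30, edgeR adjusted p = 0.0439). Nrarp, a feedback inhibitor induced by Notch, had 4 and 4 counts in the WT libraries and 1 and 2 in the cKO libraries. This was a ratio of 0.415 with a counting interval of 0.0709 to 1.73. Hes5 and Hes2 were at 0 in both WT libraries, and Dll4 had 3 to 8 counts in any library. The 8 genes that were not tested include most of the low effectors, so the counts above describe the genes with enough reads.

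**Figure D5:**
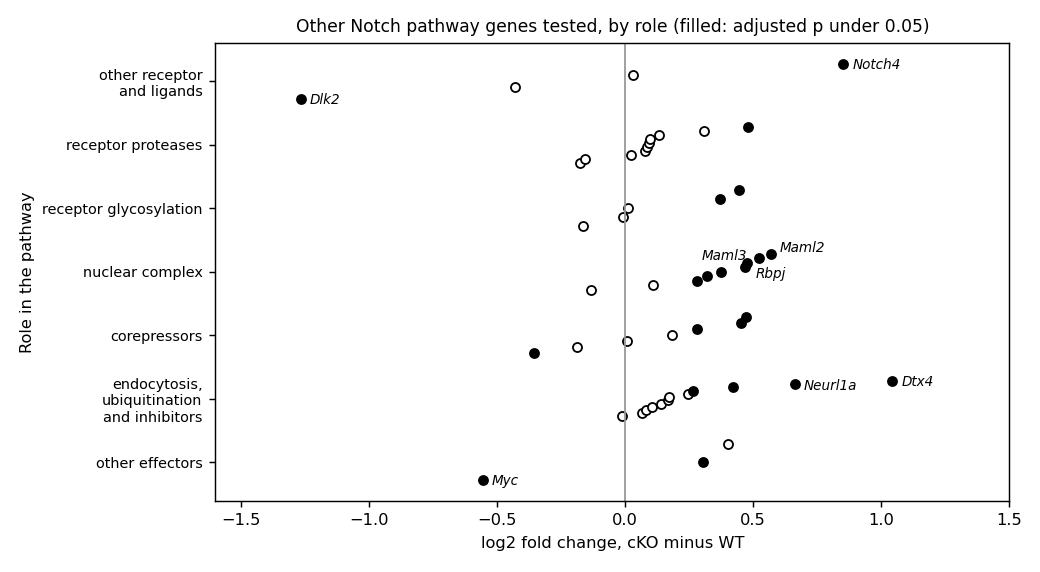
Log2 fold change, cKO minus WT, of the 50 other Notch pathway genes tested, in rows by role; each circle is a gene, filled where the adjusted p was under 0.05, and the genes described with their values are named. In the nuclear complex 7 of 9 circles are filled, all to the right of 0, while in the receptor proteases 1 of 10 is.

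Peaks and expression were then set side by side. Of the 5 members with a peak, 3 rose and none fell in the edgeR fit; of the 4 tested without a peak, 2 fell and none rose. Over all genes tested that the annotation held, 22.7% of the 5685 with a peak rose and 13.4% fell, beside 8.78% and 20.9% of the 8433 without. Of the other pathway genes, 13 of 30 with a peak rose and 1 fell (Myc), and 6 of 20 without a peak rose and 2 fell. Rbpj had 2 peaks, Spen 10 and Notch4 none. Of the Rbpj peaks, 1 was among the weakest of the whole list (fold enrichment 1.58, −log10 q 1.58, rank 10148 by q). Genes with a peak also differ from the rest in level, as the shares by count show, and no adjustment for level was made.

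Markers of other cell types moved between the same libraries. Chondrocyte markers fell in 7 of 8 cases, from a sum of 4330 and 4427 CPM to 259 and 263, and osteoblast markers in 6 of 8 tested, among them Sp7 (log2 fold change −1.74) and Alpl (−1.32). Of the markers of mural cells, which are known to express Notch3, 4 of 7 tested fell and none rose in the edgeR fit. Their sum was 544 and 600 CPM in the WT libraries and 367 and 373 in the cKO libraries. Most of this sum was Acta2 (425 and 489 CPM in the WT libraries, 279 and 282 in the cKO libraries). Pdgfrb was counted with the mesenchymal markers and not with the mural ones. It rose from 113 and 114 CPM in the WT libraries to 182 and 187 in the cKO libraries. Markers of endothelial cells, which are known to express Notch4, summed to 3.70 and 3.50 CPM in the WT libraries and to 17.2 and 14.6 in the cKO libraries; Emcn and Kdr rose, whereas Pecam1, Cdh5, Tie1, Tek and Erg were each under 1 CPM in every library and Cldn5 was at 0. Adipocyte markers rose in 3 of 6 cases, among them Fabp4 (log2 fold change 1.08) and Plin1 (0.66). They fell in 1, Cidec (−2.54), which was the largest change in that list. Mesenchymal markers rose in 4 of 9 cases and fell in 4. The rises were Thy1 (log2 fold change 4.59), Prrx1 (1.05), Pdgfrb (0.70) and Pdgfra (0.24). The falls were Nt5e (−2.35), Eng (−0.71), Cxcl12 (−0.65) and Ly6a (−0.30). Macrophage markers rose in 1 of 7 cases, and those of neutrophils, red cells and lymphocytes each summed to at most 4.17 CPM. The part of these differences in the results for the Notch genes was not tested.

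The patterns most like those of the members that moved most were sought among 13295 genes over the 4 libraries, as the distance between centred log2 CPM values. For Hey1 the nearest were Chodl (0.258), Sept3 (0.263) and Lamb3 (0.274). For Notch3 they included Adm (0.0367) and Epha4 (0.0549), and for Jag1 they were Sorbs3 (0.0173), Cfb (0.0385) and Pnmal2 (0.0409). With 4 libraries in 2 groups, such a distance reflects little beyond the size of the difference between groups.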

How the data were processed

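The members and gene lists were chosen with earlier results of these data known. Reads were mapped by the authors with HISAT2 2.0.4 and tested with Ballgown; TopHat and MACS2 are named in the submitters' processing notes. The authors deposited estimated counts per gene, not normalized, and a value headed FPKM that sums to 1000000 per library and is used here as TPM. The counting tool and its use of strand are not given in the sources used here. After rounding and filterByExpr, counts were scaled (TMM) and tested two-sided in edgeR 4.0.16 by its quasi-likelihood test, adjusted by Benjamini-Hochberg. Entries without a gene name (0.110% to 0.125% of counts) were left out.

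The deposited peak list gives pileup signal, fold enrichment as a ratio, and the q-value as −log10, all by the authors; it is 1 list for 4 MeRIP samples of unknown depth, so peaks have no replicate error. Peak positions are on mm9 and summits were placed on GENCODE vM1. Named pathway genes are those called with an absolute log2 fold change of at least 0.5, with Rbpj, Nrarp and Notch4 named in any case; likeness used the 3 called members of largest change. A gene that meets the likeness rule is not reported here. Further genes were named after their values were seen. Intervals of count ratios cover counting error only. Alternatives were median-of-ratios scaling, no filter, DESeq2 1.42.0, limma 3.58.1 on log2(TPM + 0.1) and log2(TPM + 1), a replicate block, each library left out, the cKO libraries summed, and 3 rules for peaks. The edgeR steps were tested on simulated data.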

Additional observations from a re-analysis of the deposited data

How the results depend on the processing

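Notch3, Jag1 and Hey1 were called, in the same direction, in all 11 alternatives, and no member changed direction. Notch2 was lost in 3 alternatives and Hes1 in 4. Over all genes, 4677 changed, but 2012 with the cKO libraries summed and 1867 to 8750 with a library left out, the lowest counts without a cKO library, since the spread then rests on the WT pair, and the highest without a WT library, since a lone library is assumed to vary like the other group. DESeq2 called 3862 genes and limma on log2(TPM + 0.1) 3221, of which 1779 were higher and 1442 lower, a majority of rises where edgeR had 2100 and 2577. With the cKO libraries summed, 3 members were called, 1 of them lower, and 8 other pathway genes, 7 higher and 1 lower. Without the low count filter 5 members were higher, Notch1 (adjusted p = 0.0061) and Jag2 (0.0136) being added, and in DESeq2 1 member was lower. With a library left out, 3 to 7 members were called, 2 to 5 higher and 1 to 2 lower; of the other pathway genes, 5 to 36 were called, 4 to 29 higher and 1 to 8 lower. The log2 fold change of Mettl3 lay between −0.0782 and 0.0226 with a library left out and was 0.0013 without WT replicate 1 and the upper value without cKO replicate 2.

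The replicate numbers did not pair the samples (correlation of deviations 0.0466 over 12585 genes); the replicate block gave 4881 calls and 6 members, Notch1 being added (adjusted p = 0.0412). Placing peaks by any overlap or merging them kept 11 peaks on 5 members. Depth limits Dll1, Hey2 and Heyl.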
